A study of Mus musculus with 12 samples.

Results

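After PMA, 1178 of the 2609 regions of HP1γ-associated chromatin RNA shared no base with any region of the untreated list (45.2% of the PMA list, the share the choice itself fixes). These PMA-only regions are described here. They were selected on their deposited start and end alone, which overlapped none of the 10013 untreated regions. They were then divided by distance: 726 lay within 10 kb of an untreated region, edge to edge, and are called near, and 452 lay further away and are called far. The other 1431 PMA regions overlapped an untreated region and are called overlapping below.

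HP1γ, the product of Cbx3, is a small chromatin protein whose chromodomain binds methylated histone H3 and whose hinge can bind RNA. It is known from silent heterochromatin, and also from the bodies of transcribed genes, where it has been linked to elongation and splicing. PMA is a phorbol ester that imitates diacylglycerol and so activates protein kinase C, a route to rapid induction of stress and growth genes in fibroblasts.

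All cells were MEF-derived, that is from mouse embryonic fibroblasts, had lost HP1γ by knock-out and were recomplemented for its expression, so treated and untreated cells carried the same genotype. The 12 libraries formed 4 groups of 3 biological replicates: RNA of the chromatin input and RNA immunoprecipitated (IP) with HP1γ, each from untreated cells and from cells given 100 nM PMA in DMSO for 30 min. The labels name no DMSO-only group, and whether the untreated cells received DMSO is not stated. No mock IP or IP from cells lacking HP1γ was used here, so enrichment over input cannot be told apart from unspecific recovery of RNA. The values stand in 2 lists, 1 per condition, of regions with more RNA in the IP than in its input, with no value per library, no read depth, no strand and no replicate error. Coordinates are mm9, from the submitters' processing notes. No mm9 sequence or annotation was used, so each region is named by its position, and no gene, exon, intron, UTR, fibroblast marker or sequence is given.

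The lists were built from unequal sets of replicates, which touches every result below. A region was assembled from at least 3 peaks, which the list names by replicate. In all 2609 regions of the PMA list, members and others, these came from both replicates 2 and 3, and none from PMA replicate 1. Without untreated replicate 1, 2 or 3, and with 3 member peaks still required, 2095, 2021 and 1956 PMA regions had no untreated partner. Without PMA replicate 2 or 3, only 72 and 121 PMA regions remained, because few regions have 3 peaks from a single replicate. Of these, 17 (23.6%) and 23 (19.0%) were PMA-only, against 45.2% of the whole PMA list.

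A PMA-only region was typically assembled from the fewest peaks the list allows. Exactly 3 member peaks made up 1055 of 1178 (89.6%, exact 95% interval 87.7 to 91.2), against 1125 of 1431 overlapping PMA regions (78.6%, 76.4 to 80.7). Intervals on shares and medians cover counting error only, and neighbouring regions are not independent. Replicate 2 gave more of the peaks in 578 regions, replicate 3 in 507, and both gave as many in 93. Among overlapping PMA regions replicate 2 led in 762, replicate 3 in 493, and 176 were even.

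The distance to the untreated list had 1 broad peak and no break at 10 kb. The median gap was 5944 bp (interquartile range 1602 to 20917). Only 11 regions lay within 100 bp of an untreated region, 205 at over 100 bp and up to 1 kb, 122 at 1 to 2 kb, 198 at 2 to 5 kb and 190 at 5 to 10 kb. Beyond that came 272 regions at 10 to 50 kb, 65 at 50 to 100 kb, 106 at 100 kb to 1 Mb and 9 at more than 1 Mb. The near share was 61.6% (58.8 to 64.4), and it follows the chosen distance: 45.5% lay within 5 kb and 84.7% within 50 kb. It also follows the untreated list: it was 23.7%, 28.2% and 32.4% without untreated replicate 1, 2 or 3, and 31.9% with an untreated list as long as the PMA list. The untreated lists without replicate 1, 2 or 3 held only 1505, 1988 and 2367 regions.

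**Figure D1:**
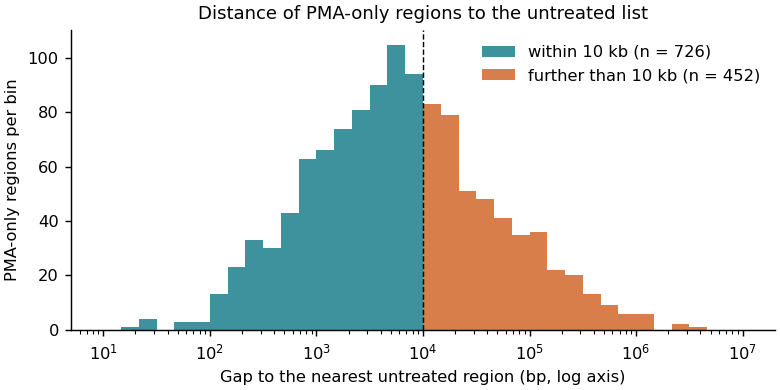
The number of PMA-only regions (vertical axis, per bin) against the gap in bp to the nearest untreated region (horizontal log axis), with near regions in teal, far regions in orange and a dashed line at 10 kb. The counts rise and fall smoothly around the median of 5944 bp, with no gap between the 726 near and 452 far regions.

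At the edge of the overlap rule, members and non-members differed little in position. The closest member was on chromosome 11 (80368734 to 80369284), 19 bp from a wider untreated region, with folds of 2.37 after PMA and 2.18 untreated. Next were regions on chromosome 4 (132628262 to 132629048) and chromosome 6 (5795793 to 5796732), both at 24 bp. The fold of the chromosome 4 region was 3.02 against 4.99 for its untreated neighbour, and that of the chromosome 6 region 3.45 against 4.78. On the other side of the rule, a region on chromosome 8 (127258072 to 127258756) overlapped by 16 bp and regions on chromosomes 6 (72298702 to 72299090) and 17 (48545984 to 48546439) by 19 and 31 bp. Their folds were 3.54, 2.69 and 3.11. These regions differ from the closest members by fewer bases than any of them is wide.

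The 10 kb line also ran through a continuous set of regions. Just within it, at 9844, 9766 and 9736 bp, were regions on chromosome 6 (112689683 to 112690071, fold 2.43) and chromosome 11 (60065122 to 60065637, fold 2.57, and 19824442 to 19825068, fold 2.62). Just beyond it, at 10058, 10072 and 10128 bp, were regions on chromosome 1 (185894689 to 185895305, fold 3.70), chromosome 4 (70060509 to 70061044, fold 2.49) and chromosome 15 (62076811 to 62077861, fold 3.09).

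PMA-only regions were narrower than the overlapping PMA regions and had lower −log10 q, while their fold enrichments were nearly as high. Widths, folds and q values come from the lists that chose the members, and a wide region overlaps another more easily, so these values are a description with no test. The median width was 665 bp (95% interval of the median 651 to 679) against 913 bp (886 to 937). The median −log10 q, the authors' value for IP against input averaged over member peaks, was 3.24 (3.15 to 3.34) against 5.59 (5.40 to 5.81), and 129 of 1178 members (11.0%) exceeded the overlapping median. The median fold, the authors' ratio of IP over input per region, was 3.43 (3.35 to 3.48) against 3.56 (3.51 to 3.63), and 490 members (41.6%) exceeded that median. A mean −log10 q short of the 0.05 level was found in 51 members (4.33%) and in 13 overlapping regions (0.908%).

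Near and far members differed from each other in opposite directions for fold and for −log10 q. Near regions had a median fold of 3.33 (3.27 to 3.40, interquartile range 2.86 to 3.85, n = 726) and far regions one of 3.54 (3.46 to 3.63, interquartile range 3.06 to 4.11, n = 452). The median −log10 q was 3.35 (3.23 to 3.50) in near and 3.10 (2.88 to 3.22) in far regions. Without PMA replicate 3, which leaves only 17 near and 6 far regions, near minus far turned to −0.16 in −log10 q. The median width was 679.5 bp (661 to 696) in near and 639.5 bp (617 to 665) in far regions. The difference of 40 bp has limits of −4 to 79 bp, taken from the ends of these intervals, and was −69 bp in the same 23 regions. The interquartile ranges overlapped widely for all 3 measures, so near and far regions cannot be separated by strength or width. The untreated regions nearest to near and to far members differed in the same directions. Their medians were 3.72 and 3.89 in fold, 3.72 and 3.52 in −log10 q, and 555 and 518 bp in width.

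**Figure D2:**
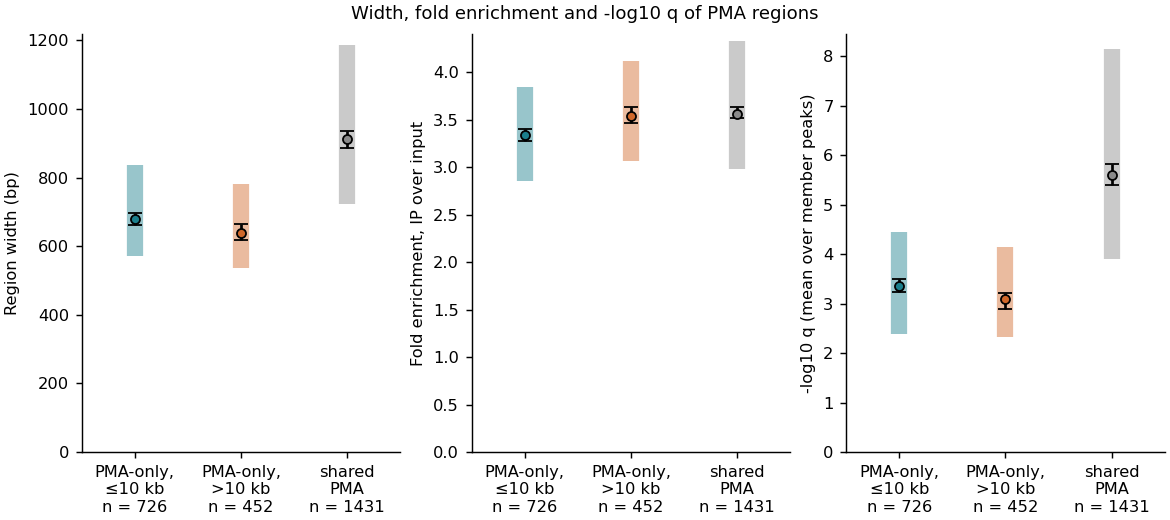
Region width in bp, fold enrichment of IP over input and −log10 q (vertical axes, from 0) for near, far and overlapping ("shared") PMA regions; bars span the interquartile range, and points with whiskers give the median and its 95% interval. Far regions sit above near regions in fold (3.54 against 3.33) and below them in −log10 q (3.10 against 3.35), and the overlapping regions are widest, at 913 bp.

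The median fold was higher in more distant classes, although finer classes were not in strict order. The median fold was 3.26 (3.15 to 3.35) in the 216 regions within 1 kb of an untreated region and 3.39 (3.31 to 3.46) in the 510 at 1 to 10 kb. It was 3.50 (3.38 to 3.63) in the 272 at 10 to 50 kb, 3.56 (3.17 to 3.73) in the 65 at 50 to 100 kb and 3.61 (3.50 to 3.91) in the 115 beyond 100 kb. Neighbouring classes had overlapping intervals, while those of the nearest and the furthest class were separate. In finer classes it was 3.38 at 1 to 2 kb and 3.33 at 2 to 5 kb, and 3.63 at 100 kb to 1 Mb and 3.50 for the 9 regions beyond. The median −log10 q went the other way, from 3.31 and 3.37 in the nearest classes to 2.85 in both of the furthest.

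Far regions also had the higher median fold within each quartile of −log10 q and of width. These quartiles are coarse: the highest spanned 4.37 to 17.3 in −log10 q and 813 to 1913 bp in width. By quartile of −log10 q, from the lowest to the highest, near medians were 2.83, 3.38, 3.49 and 3.81 and far medians 3.12, 3.55, 3.66 and 4.23. By quartile of width the far median exceeded the near median by 0.104, 0.212, 0.267 and 0.33, from the narrowest to the widest. The far median was the higher on 15 of 20 chromosomes; on chromosomes 2, 5, 8, 18 and X the near median was higher. How IP and input levels each contribute was not tested, since the lists hold only the ratio.

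Over all 726 near members, the median fold of 3.33 was below that of the nearest untreated region, 3.72 (3.65 to 3.79). The same held for the 452 far members, at 3.54 against 3.89 (3.78 to 3.95). Over the whole lists, the median folds were 3.50 after PMA and 3.65 untreated, so the lower fold was not particular to near members. The 5 near regions with the highest fold are given with their neighbours. The leader, on chromosome 10 (56640546 to 56641242), reached 6.78 at 8292 bp from an untreated region of 4.17. Regions on chromosome 17 (5423592 to 5424239) and chromosome 10 (83895957 to 83896970) followed at 6.27 and 6.10, with untreated neighbours at 3.58 and 4.10. On chromosome 17 (71552537 to 71553001) a fold of 6.01 was listed 3091 bp from an untreated fold of 2.5, and on chromosome 6 (115502863 to 115503428) one of 5.93 at 3553 bp from 4.71. The choice by fold nearly fixes that these 5 exceed their neighbours, which are other stretches of RNA and not the same site. Among these 5, only the neighbour of the chromosome 6 region itself overlapped a PMA region.

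By −log10 q, other near regions led. The highest near value, 14.6, belonged to 1527 bp of chromosome 10 (76755010 to 76756536) at a fold of only 3.09, and an untreated region 2307 bp away had a −log10 q of 12.9 and a fold of 5.12. Regions on chromosome 7 (52646805 to 52647388) and chromosome 3 (30371875 to 30372598) reached 12.8 and 11.4 with folds of 2.94 and 2.66. Further regions on chromosome 3 (27401812 to 27402584) and chromosome 10 (92758876 to 92759700) reached 11.3 and 10.4, with folds of 5.24 and 4.61. Thus 3 of the 5 near regions with the highest −log10 q had folds below the near median of 3.33.

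Some of the strongest far regions combined a high fold with a high −log10 q. The top −log10 q of all members, 17.3, came with a fold of 6.07 at a 687 bp region of chromosome 8 (97852458 to 97853144), and its nearest untreated region was 99.2 kb away. On chromosome 4 (145752538 to 145753221) a 684 bp region had a −log10 q of 12.6 and a fold of 6.27, at 925.6 kb from an untreated region. Both were among the 5 highest far regions on both scales. The highest fold of all members, 6.96, was on chromosome 13 (93382650 to 93383608), 16.2 kb from an untreated region of 3.34.

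The remaining leaders of the far set were single regions as well. By fold they were on chromosome 14 (12735187 to 12735913) at 6.23 and chromosome 2 (35903997 to 35904691) at 5.86, with −log10 q values of 8.94 and 5.43. By −log10 q they were on chromosome 12 (112031431 to 112032222) at 12.3, chromosome 17 (32449441 to 32450116) at 11.3 and chromosome 19 (56610384 to 56610920) at 11.0. Their folds were 4.80, 3.04 and 5.86, and that on chromosome 17 was below the far median of 3.54. None of these 8 far regions had another PMA region within 10 kb.

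The most isolated members were not the strongest. A region on chromosome 5 (81524522 to 81525644) lay 4.005 Mb from the nearest untreated region, with a fold of 3.81 and a −log10 q of 7.99 from 4 member peaks, 3 of them of replicate 2. Regions on chromosome 14 (79942263 to 79942824), chromosome 2 (160797307 to 160797877) and chromosome 6 (126787357 to 126788577) lay 2.75, 2.63 and 1.34 Mb away. Their folds were 3.50, 2.90 and 3.21, and their −log10 q values were 2.60, 2.67 and 2.44. The fifth, on chromosome 4 (32056902 to 32057662), lay 1.27 Mb away with a fold of 4.94 and a −log10 q of 7.34. In total 115 far regions (25.4%, 21.5 to 29.7) had no untreated region within 100 kb.

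The untreated region nearest to a near member mostly had no PMA partner of its own, as was the case for untreated regions in general. The nearest untreated region overlapped a PMA region for 145 of 726 near members (19.97%, 17.1 to 23.1), where 15.5% (14.8 to 16.3) of all untreated regions did. For the other near members, each list therefore held a region that the other list did not overlap, at most 10 kb apart edge to edge. Untreated regions lay within 10 kb on both sides of 248 near members (34.2%), and near members had a median of 2 untreated regions within 10 kb, and at most 10. An overlapping PMA region lay within 10 kb of 260 near members (35.8%). Only 1 far member had such a neighbour, which the definition of far nearly fixes.

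Most PMA-only regions had no other PMA-only region nearby, but many had some PMA region. Any other PMA region lay within 10 kb of 414 of 1178 members (35.1%), 351 near (48.3%) and 63 far (13.9%). Joined wherever their gap was at most 10 kb, the 1178 members formed 1061 groups: 962 single regions, 82 pairs, 16 groups of 3 and 1 group of 4. Another member lay within 10 kb of 154 near members (21.2%, 18.3 to 24.4) and of 62 far members (13.7%, 10.7 to 17.2). Another overlapping region lay within 10 kb of 524 of 1431 overlapping regions (36.6%). Members were searched among members and overlapping regions among the more numerous overlapping regions, so the last share is not directly comparable with the others. Among the 16 groups of 3, 8 were all near, 5 were all far and 3 were mixed.

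The group of 4 was on chromosome 10 (38739990 to 38747557) and all near, spread over 7568 bp around a single untreated region of 1337 bp with a fold of 3.59. The folds of its members were 3.52, 3.52, 3.00 and 2.86, from left to right. A near group of 3 on chromosome 2 (37676809 to 37682746) had folds of 4.88, 4.22 and 3.69, between untreated regions of 4.17 and 4.15. In another on chromosome 3 (27401812 to 27408702), a fold of 5.24 stood beside 2.55 and 3.00. In these 3 near groups, no untreated region nearest to a member overlapped a PMA region.

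The other groups of 3 that come first in chromosome order were all far. On chromosome 2 (72234544 to 72243099), folds of 3.71, 2.26 and 3.20 lay 30.1 to 38.0 kb from the nearest untreated region, which had a fold of 3.895. On chromosome 4 (45442345 to 45454254), folds of 4.86, 3.66 and 4.37 lay 22.4 to 33.1 kb from an untreated region of 3.23. Neither group had an untreated or an overlapping PMA region within 10 kb.

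**Figure D3:**
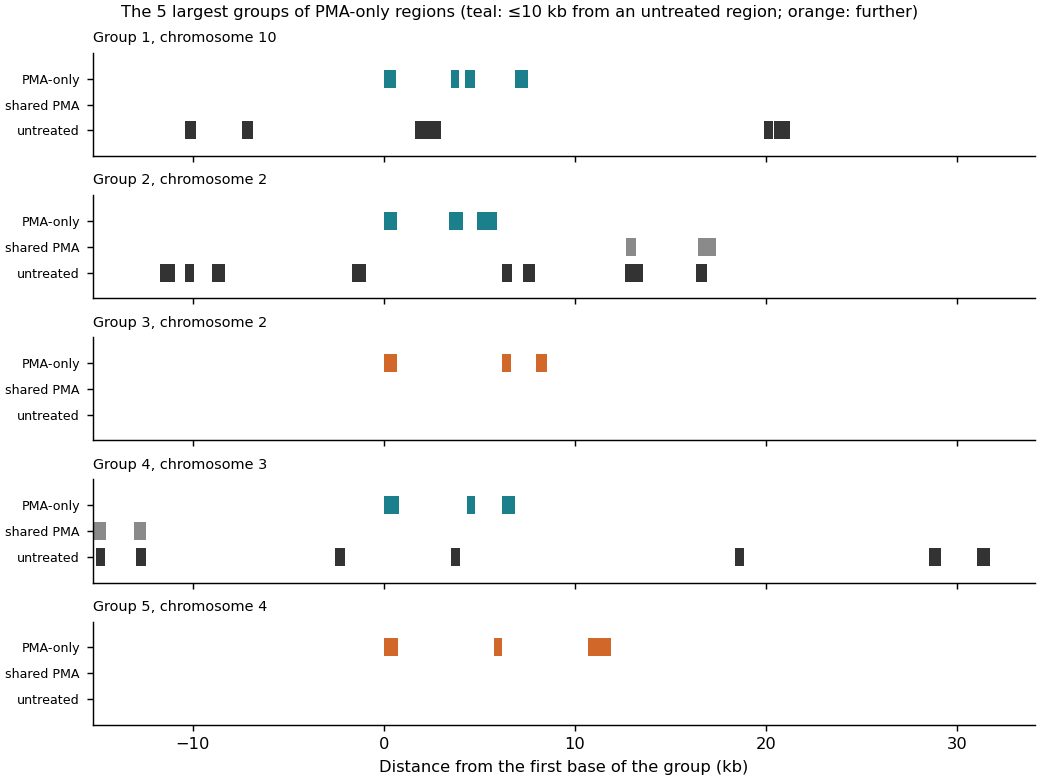
Positions in kb from the first base of each group (horizontal axis) for the group of 4 and the groups of 3 that come first in chromosome order, with rows for PMA-only regions (teal near, orange far), overlapping ("shared") PMA regions and untreated regions. Groups 1, 2 and 4 have untreated regions on both sides, and groups 1 and 4 also have 1 among their members. Groups 3 and 5, all far, have none in the window shown.

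On a larger scale the fullest 1 Mb window of PMA-only regions was on chromosome 10 (38739990 to 39617090), and it held the group of 4. It had 11 members, 10 near and 1 far, with folds of 2.86 to 5.64, next to 11 overlapping PMA regions and 46 untreated regions. The 10 near members also formed the fullest window of near regions (38739990 to 39262677). The fullest window of far regions lay on chromosome 2 (71688204 to 72279921), with 6 far members, no overlapping PMA region and 2 untreated regions in 592 kb. Its folds were 2.26 to 3.71 with a median of 2.76, below the median of all far regions. It included the far group of 3 on that chromosome.

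Members were found on all 19 autosomes and the X chromosome. The PMA-only share of the PMA list was highest on chromosome 16, at 38 of 64 regions (59.4%, 46.4 to 71.5), and lowest on chromosome 14, at 48 of 144 (33.3%, 25.7 to 41.7). On 18 of 20 chromosomes the interval included the share of the whole list, and the exceptions were chromosomes 14 and 16. Far members outnumbered near ones on 2 chromosomes, 16 (21 against 17) and 5 (37 against 33). Chromosome 10 held 64 near and 25 far members, or 7.56% of all members, close to its 7.81% of untreated regions. Chromosome 2 held 47 near and 44 far members, or 7.72% of all members against 6.81% of untreated regions. The X chromosome had 4 near and 3 far members, too few for a comparison.

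**Figure D4:**
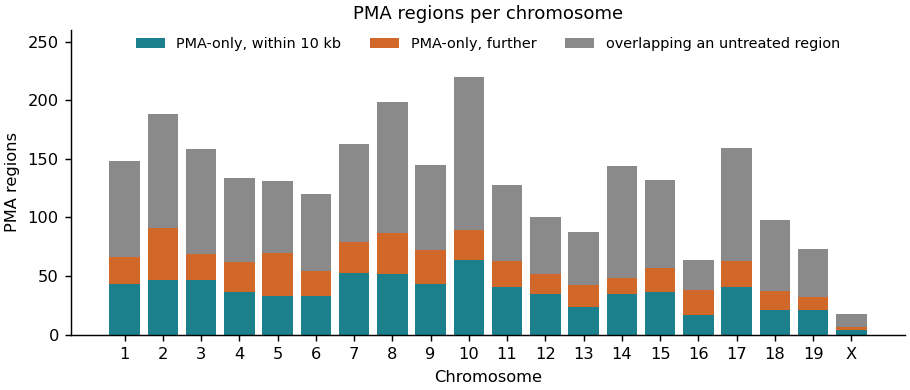
Number of PMA regions (vertical axis, from 0) on each chromosome (horizontal axis), stacked as near PMA-only, far PMA-only and overlapping regions. Chromosome 14 has the lowest PMA-only share (48 of 144) and chromosome 16 the highest (38 of 64).

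Absence from the untreated list did not mean that no untreated peak had been called between the listed untreated regions on either side. Peaks carry running numbers, and in each replicate the numbers of the listed peaks rose along every chromosome, with 0 of 9884, 9767 and 9577 regions out of order in untreated replicates 1, 2 and 3. A jump in number between neighbouring untreated regions therefore counts peaks that were called between them but joined in no listed region. At least 75480, 29737 and 22970 peaks of these replicates were unlisted in this way. The PMA list left out peaks as well, at least 45120 of replicate 2 and 88239 of replicate 3. The highest peak numbers of these PMA replicates were 49502 and 92243, against 87348, 40773 and 33450 in untreated replicates 1, 2 and 3. The shorter PMA list therefore does not mean that fewer peaks were called in each replicate after PMA. The position and strength of an unlisted peak are not given.

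All 1176 members that lay between untreated regions were in a stretch with at least 1 such unlisted untreated peak. The 2 remaining members lay outside the first or last untreated region of their chromosome. The count used only replicates with a peak in both flanking regions, since otherwise the unlisted peak could lie further out. Unlisted peaks of at least 2 replicates were found for 1146 members (97.4%, 96.4 to 98.3) and of all 3 for 815 (69.3%, 66.6 to 71.9). Counted over stretches, an unlisted peak of at least 1 replicate was found in all 1024 with a member and in 7329 of 8967 without (81.7%). Unlisted peaks of at least 2 replicates were found in 994 of 1024 with a member (97.1%) and in 5975 of 8967 without (66.6%). In long stretches the shares were close. Beyond 100 kb they were 100% with and 99.8% without a member for at least 1 replicate, and 98.9% and 96.7% for at least 2. The share with all 3 was 63.1% (59.5 to 66.6) for near and 79.2% (75.2 to 82.9) for far members, whose stretches were longer, at medians of 27.3 and 389 kb. A long stretch holds unlisted peaks more easily, so the shorter stretches say more.

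Between 1 and 10 kb in length, stretches that held a PMA-only region lacked unlisted peaks less often than other stretches of their length class. Of all 9991 stretches between untreated regions, 14.8% had no unlisted peak in any of the 3 replicates. Among stretches of 1 to 2 kb this was 253 of 736 without a member (34.4%, 30.9 to 37.9) and 0 of 18 with a member, where a count of 0 allows up to 16.7%. At 2 to 5 kb it was 172 of 1251 (13.7%, 11.9 to 15.8) and 0 of 68 (up to 4.41%), and at 5 to 10 kb 56 of 1028 (5.45%, 4.14 to 7.02) and 0 of 91 (up to 3.30%). These classes hold 177 of the 1024 stretches with a member, and that at 5 to 10 kb is the last in which the share without a member exceeds the limit. Lengths were not fully matched within the classes. Median lengths with and without a member were 1678 and 1421.5 bp at 1 to 2 kb, and 3455.5 and 3249 bp at 2 to 5 kb. At 5 to 10 kb they were 7093 and 7106.5 bp. At 10 to 20 kb the shares were 1.44% and 0 of 112 (up to 2.68%), and beyond 100 kb 0.139% and 0 of 463 (up to 0.648%). In both classes the share without a member was below the limit. The median number of unlisted peaks, summed over replicates, was 2 without and 4 with a member at 2 to 5 kb. It was 6 and 10 at 10 to 20 kb, and 24 and 39 beyond 100 kb, where stretches with a member were also longer (median 497375 against 402449 bp). Both counts depend on transcription and mapped depth in a stretch, whose part was not tested. These values are a description with no test, since the untreated list was part of the choice of members and neighbouring stretches are not independent.

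**Figure D5:**
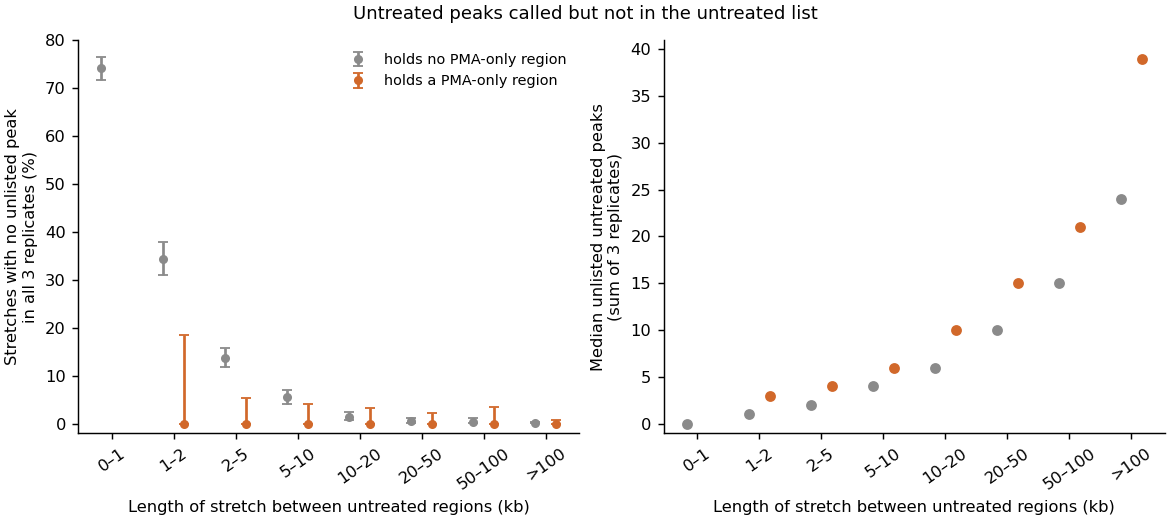
Stretches between neighbouring untreated regions by length in kb (horizontal axes): left, the share with no unlisted untreated peak in all 3 replicates, with exact 95% intervals; right, the median number of unlisted peaks summed over replicates, in stretches flanked by peaks of all 3. Orange stretches hold a PMA-only region and grey ones do not. On the left, orange is at 0% in each class, and its interval is separate from that of grey only up to 10 kb. On the right, orange is above grey. No stretch under 1 kb holds a member.

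For the named regions, the same reading gave counts per replicate. The chromosome 3 region with a fold of 5.24 (27401812 to 27402584) lay in a stretch of 5523 bp between untreated regions, with 6, 5 and 2 unlisted peaks of untreated replicates 1, 2 and 3. The near group of 3 on chromosome 2 lay in a stretch of 7111 bp with 3, 5 and 1. The chromosome 8 region with the highest −log10 q lay in a stretch of 286661 bp with 21, 4 and 4, so nothing can be said of a peak at its own position. Counts for a replicate without a peak in a flanking region can include peaks further out.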

How the data were processed

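RNA of 12 libraries was sequenced as directional 65-bp single-end reads, per the labels' protocols. Tools listed in the submitters' processing notes, without roles, are MACS2 2.1.0, deepTools, STAR 2.5.0a, cutadapt 1.11 and Subread with featureCounts 1.4.6-p3, on mm9. How peaks were called and filtered is not given in the sources used here. Per region, the 2 deposited lists give a score, a fold (ratio of IP over input), −log10 p and −log10 q, read as the authors' means over the joined peaks. The deposited mean summit offset was not used. Read depth is unknown.

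Overlaps were computed half-open, and gaps edge to edge. Starts are printed 1-based. Python 3.11.15, pandas 2.3.3, numpy 2.4.6, scipy 1.17.1 and matplotlib 3.10.9 were used, and the code was tested on simulated lists. Intervals (95%) are exact Clopper-Pearson for shares and from order statistics for medians. A count of 0 allows up to 3 counts. Regions are not replicates, so no test was run. The members and lists were chosen with earlier results of these data known. Named regions are the 5 highest near and far by fold and by −log10 q, the 5 largest gaps, the 3 nearest each threshold on either side, the 5 largest groups (ties by chromosome and start) and the fullest 1 Mb windows. The gene tables at hand are GRCm38, and 11 members lie past its last gene on 6 chromosomes, so genes and sequence, though planned, were not analysed.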

Additional observations from a re-analysis of the deposited data

How the results depend on the processing

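With the untreated list limited to as many regions as the PMA list, by −log10 q, 2108 regions were PMA-only and 31.9% of them near. Near minus far was then 83 bp in median width and 15.3 percentage points in the share with another member within 10 kb. Counting regions within 1 kb as overlapping gave a near share of 53.0%. A −log10 q of at least 3 in both lists gave 54.0% and a fold difference of −0.36 in place of −0.21. A near distance of 5 or 50 kb gave 45.5% or 84.7%. Leaving out 1 replicate of either list gave 17 to 2095 PMA-only regions, a near share of 23.7% to 73.9% and differences of −69 to 173 bp in width, −0.74 to −0.11 in fold, −0.16 to 0.59 in −log10 q and 0 to 22.96 points in grouping. Several ends of these ranges rest on 17 near and 6 far, or 12 near and 5 far, regions. They are the lowest count, the highest near share, both extremes in width, the lowest fold difference and the 0 points in grouping. The turned directions (−69 bp and −0.16, without PMA replicate 3) rest on the 17 near and 6 far regions. Leaving out 1 replicate cut the untreated list to between 1505 and 2367 regions and the PMA list to 72 or 121. The fold difference kept its direction in all 13 alternatives, and width and −log10 q in 12 of 13. The restriction to exactly 3 member peaks was added after seeing the data. No paired analysis was possible because the lists hold no values per library.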
